A study of Mus musculus with 15 samples.

Results

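The genes described here are a list of 34 that act in fatty acid oxidation or are known targets of peroxisome proliferator-activated receptor alpha (PPAR-alpha), taken from the count table by gene name. All 34 names were found among the 21702 genes of the table, and all 34 were among the 12172 genes with enough reads to be tested. They were followed in whole livers of wild-type female C57BL/6 mice (the C57BL/6N line in the study's methods), 15 livers in all, in 5 groups of 3 mice. Every mouse had received adeno-associated virus serotype 8 (AAV8), either AAV8-null, which carries no added gene, or AAV8-p21, which carries mouse p21 (Cdkn1a), an inhibitor of cyclin-dependent kinases, behind the thyroxine-binding globulin promoter that is active in hepatocytes. The study's methods gave virus by vein before mating, and gave the age of the mice as 8 to 14 weeks, whereas its reporting form gave a wider range of 8 weeks to 12 months for wild-type mice. The groups were AAV8-null non-pregnant (NP), AAV8-null at 8 days post coitum (dpc), AAV8-null at 16 dpc, AAV8-p21 at 8 dpc and AAV8-p21 at 16 dpc. Livers are given in the order of their numbers, except that those of the last group are called a, b and c, since the numbers on their columns differ from those in the labels. There was no AAV8-p21 NP group, so an effect of p21 outside pregnancy was not measured. The hour of sampling and the feeding state of the mice were not given in the sources used here.

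Fatty acids that enter a hepatocyte are bound by carrier proteins, activated to acyl-CoA and moved into mitochondria by the carnitine shuttle, where beta-oxidation shortens them to acetyl-CoA for energy or for ketone bodies. Very long chains are shortened first in peroxisomes, and a side route in the endoplasmic reticulum, omega-oxidation, is run by Cyp4a enzymes. PPAR-alpha is a nuclear receptor that binds fatty acids, pairs with the retinoid X receptor on repeats of the hexamer AGGTCA, and is best known in liver for raising these genes in fasting.

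Promoters of members are shown because the receptor is known through a sequence, and 3 are printed whole, those of the members that changed in a comparison described below and held a match. At least 1 RefSeq promoter (assembly GRCm38.p6, 250 bases before to 50 bases after an annotated start) was matched by symbol for 28 of the 34 members, 33 promoters in all since 4 members had more than 1, the others being Acaa2, Decr1, Cyp4a10, Cyp4a14, Acat1 and Vnn1. Each was searched on both strands for AGGTCANAGGTCA, allowing at most 2 mismatches among the 12 letters that are not N. Capitals mark the match, which lies on the opposite strand in all 3.
Plin2, chr4:86670010-86670309, minus strand: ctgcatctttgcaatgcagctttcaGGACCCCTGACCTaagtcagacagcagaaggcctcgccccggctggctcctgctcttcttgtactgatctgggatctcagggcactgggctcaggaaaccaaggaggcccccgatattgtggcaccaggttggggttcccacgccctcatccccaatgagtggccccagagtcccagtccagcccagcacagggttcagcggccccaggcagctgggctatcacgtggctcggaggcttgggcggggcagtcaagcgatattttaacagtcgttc
Cd36, chr5:17835847-17836146, minus strand: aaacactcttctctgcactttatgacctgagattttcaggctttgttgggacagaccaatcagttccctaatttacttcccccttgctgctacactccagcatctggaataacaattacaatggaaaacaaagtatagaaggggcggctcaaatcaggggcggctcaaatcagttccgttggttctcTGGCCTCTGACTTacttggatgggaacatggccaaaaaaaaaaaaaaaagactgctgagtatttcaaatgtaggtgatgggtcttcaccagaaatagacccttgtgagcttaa
Acot4, chr12:84038129-84038428, plus strand: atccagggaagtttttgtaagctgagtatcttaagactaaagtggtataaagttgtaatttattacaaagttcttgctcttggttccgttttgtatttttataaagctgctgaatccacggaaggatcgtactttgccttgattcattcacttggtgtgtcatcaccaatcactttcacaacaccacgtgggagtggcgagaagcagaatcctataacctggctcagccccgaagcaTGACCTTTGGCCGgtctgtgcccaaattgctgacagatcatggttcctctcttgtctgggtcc
A match was found in 6 of the 28 members (21.4%) and in 1190 of 27018 genes with a promoter (4.40%). Read in the direction of the motif, the matched bases were AGGTCAGGGGTCC in Plin2, AAGTCAGAGGCCA in Cd36 and CGGCCAAAGGTCA in Acot4. The other 3 members with a match were Fabp1, Slc25a20 and Creb3l3. The Fabp1 match AGGCCATAGGTCA had 1 mismatch, the fewest among the members, and those of Slc25a20 (AGGTGAAAGGTCG) and Creb3l3 (AGGGGAGAGGTCA) had 2. The hexamer CACGTG, an E-box of the kind that clock proteins bind, was present in a promoter of 4 of the 28 members (14.3%) and of 2187 of the 27018 genes (8.10%). These matches describe letters in a window of 300 bases and do not show that a factor was bound.

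The libraries held 12280709 to 17615185 counted reads, and the members took at most 4.03% of them. Values are CPM, the counts of a gene scaled by library size after TMM normalization, which sets libraries so that most genes keep their level. At 16 dpc the TMM factors were 0.682 to 0.839, against 1.10 to 1.25 in the other groups, while Alb alone took 20.5% to 27.8% of reads at 16 dpc and 7.90% to 12.9% elsewhere. With libraries scaled to their total count alone, the median of all genes at 16 dpc was shifted by -0.70 on the log2 scale against NP and against 8 dpc in AAV8-null mice, by -0.59 against 8 dpc in AAV8-p21 mice, and by 0.11 between viruses at 16 dpc, so changes are given below relative to most genes. Adipocyte markers summed to at most 0.167 CPM in any liver, with 2 of 5 at 0 in all livers, and muscle markers summed to at most 0.0693 CPM, with 4 of 5 at 0. Hepatocyte markers (8 genes, Alb among them) summed to 81010 to 133900 CPM in NP and 8 dpc livers and 279000 to 444300 CPM at 16 dpc. The summed Kupffer cell markers (6 genes) ranged from 296 to 355 CPM in NP, 209 to 439.9 in AAV8-null 8 dpc, 203 to 307 in AAV8-null 16 dpc, 327 to 462 in AAV8-p21 8 dpc and 185 to 405 in AAV8-p21 16 dpc. Endothelial markers (6 genes) summed to 130.5 to 235 CPM in NP, 95.9 to 131 in AAV8-null 8 dpc, 177 to 238 in AAV8-null 16 dpc, 124 to 163 in AAV8-p21 8 dpc and 170.2 to 198 in AAV8-p21 16 dpc. Stellate cell markers (6 genes) summed to 179 to 194 CPM in NP and 95.5 to 155 in AAV8-null 8 dpc, and to 172 to 254 in the other groups. Cholangiocyte markers (5 genes) summed to 19.7 to 31.4 CPM in NP, 18 to 26.8 and 8.42 to 17.3 in AAV8-null 8 and 16 dpc, and 36.0 to 53.3 and 19.6 to 43.0 in AAV8-p21 8 and 16 dpc. Erythroid markers (5 genes) summed to 49.6 to 99.7 CPM in NP and 89.3 to 200.4 in the pregnant groups. Pancreatic acinar markers (6 genes, 1 at 0 in all livers) summed to 4.20 to 11.9 CPM in NP. They summed to 5.36 to 23.6 and 3.92 to 8.735 CPM in AAV8-null 8 and 16 dpc. In AAV8-p21 8 and 16 dpc they summed to 17.0 to 22.4 and 5.97 to 10.9 CPM. Lymphocyte markers (5 genes) summed to 5.825 to 14.2 CPM over all livers. In whole livers, fewer cells of a type and less RNA per cell cannot be told apart.

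Cdkn1a, the gene on the virus, was measured first as a check of the labels. It stood at 27.2, 16.5 and 33.4 CPM in the AAV8-null 8 dpc livers and at 648, 628 and 347 CPM in the AAV8-p21 8 dpc livers. At 16 dpc it stood at 64.4, 127 and 59.8 CPM with AAV8-null and 1664, 815 and 1093 CPM with AAV8-p21. Every AAV8-p21 liver was above every AAV8-null liver, NP livers (33.7, 5.12 and 3.29 CPM) included. The log2 difference between viruses was 4.40 ± 0.73 at 8 dpc and 3.83 ± 0.71 at 16 dpc, with adjusted p of 0.0873 and 0.0619 by edgeR's quasi-likelihood test. The counts do not separate the mouse's own transcript from that of the virus.

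The members covered a wide span of levels. Per kilobase of exon, NP livers held most of Fabp1, the liver fatty acid binding protein, at 6647 CPM per kb, followed by the omega-hydroxylases Cyp4a14 at 1741 and Cyp4a10 at 1304 CPM per kb. Acaa1b, a peroxisomal thiolase, stood at 642 CPM per kb and Ehhadh, the bifunctional enzyme of peroxisomes, at 464 CPM per kb. The lowest member was Slc27a1, a fatty acid transport protein, at 3.53 CPM per kb. Reads of some members are uncertain because parts of their exons match another gene over a whole read of 86 bases. That share was 22.2% of read positions for Acaa1b (shared mostly with Acaa1a), 19.0% for Acot2 (with Acot1), 15.7% for Hadhb, 15.2% for Cyp4a10 (with Cyp4a32), 15.02% for Acot3 (with Gm49366, whose exons also overlap 11.5% of its exon bases on the same strand) and 13.9% for Acot1 (with Acot2). A gene on the opposite strand overlaps 42.9% of the exon bases of Acadvl, 13.7% of Bdh1, 11.4% of Acaa1b, 9.22% of Acot4, 9.08% of Acot3 and 6.57% of Acaa1a, and whether strand was used in counting was not stated.

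Livers of 1 group differed widely in the members, and they differed together. In the third AAV8-null 8 dpc liver, all 34 members lay above their group mean, and in the second liver of that group 0 of 34 did. The second AAV8-null 16 dpc liver was above its group mean in 31 members, the third AAV8-p21 8 dpc liver in 31 and liver c of AAV8-p21 16 dpc in 28. The largest spread was that of Cyp4a14, whose livers of 1 group differed by up to 4.70 on the log2 scale. Its values were 1111, 543 and 9908 CPM in AAV8-null 8 dpc and 143, 436 and 3723 CPM in AAV8-p21 16 dpc. Ppara, the receptor gene itself, stood at 21.2, 180.3 and 196 CPM in the NP livers, the first of which was far below the others. Acads, the short-chain acyl-CoA dehydrogenase, spread least, by at most 0.39 on the log2 scale within a group.

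**Figure D1:**
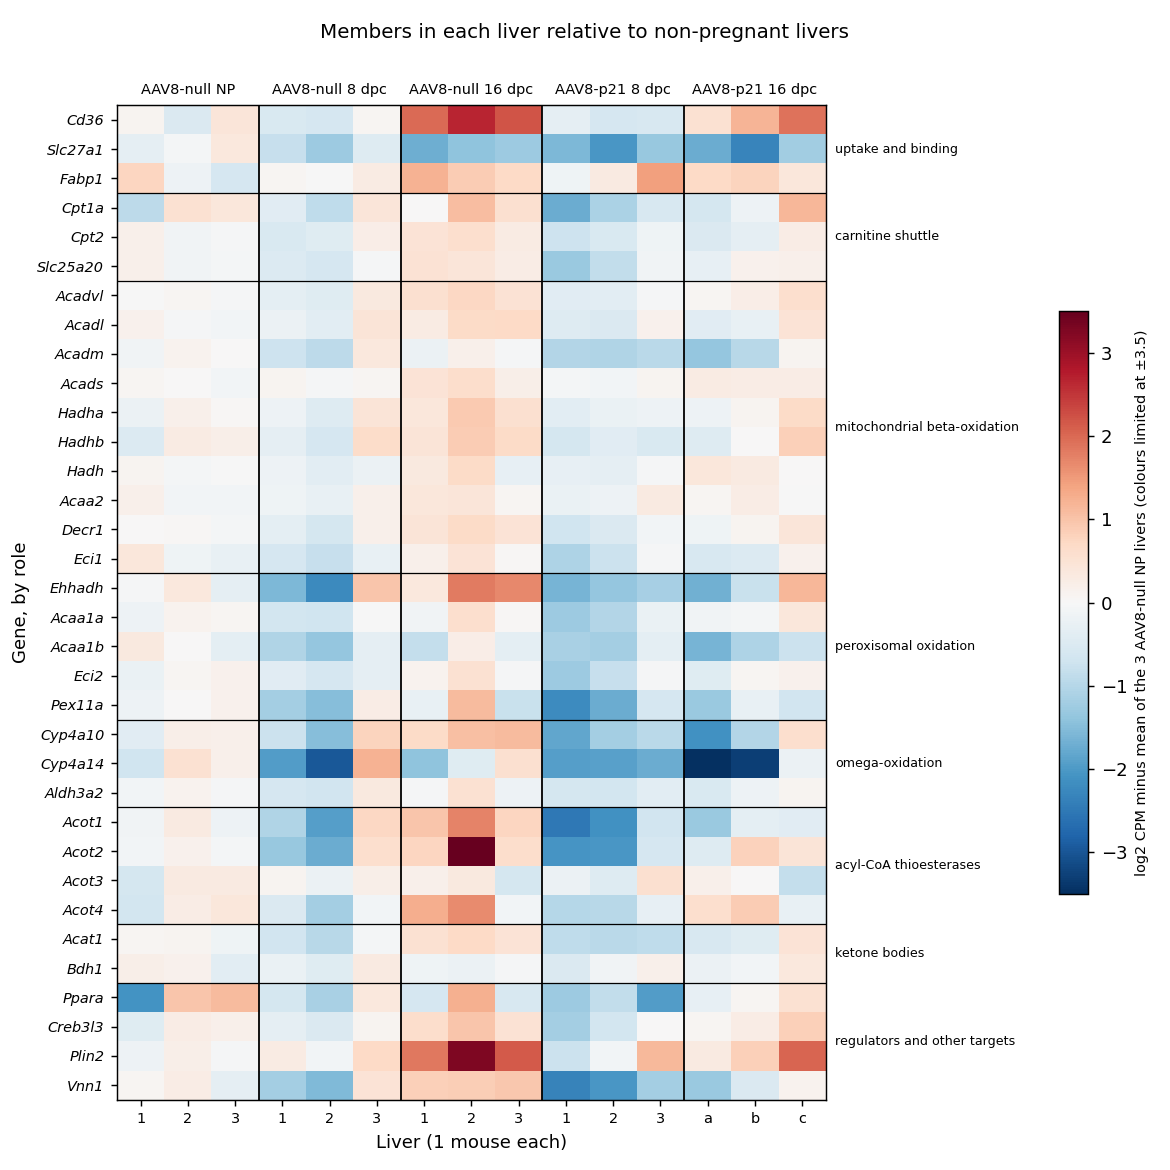
Each row is a member, grouped by role, and each column a liver; color is the log2 CPM of the liver minus the mean of the 3 AAV8-null NP livers, limited at 3.5 in either direction. The third AAV8-null 8 dpc liver stands apart from the other livers of its group, with all 34 members above the group mean.

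The first comparison was of late pregnancy with the non-pregnant liver, in AAV8-null mice. Cd36 and Plin2 rose and Slc27a1 fell at 16 dpc, and the other 31 members did not pass the test. Among all genes tested 3.71% rose and 2.82% fell, so 2 members higher and 1 lower of 34 lay near the background. In direction, 27 of 34 members had a higher value at 16 dpc, against 47.5% of all genes, but with libraries scaled to total count alone 9 were higher and 25 lower. The median log2 difference of the members was 0.48, that of all genes -0.03, and with total count scaling these were -0.22 and -0.70. All 5 erythroid markers were higher in value at 16 dpc with 2 called (median 0.93), or 4 higher with 1 called with total count scaling (0.26). Hepatocyte markers were higher in 5 of 8, 2 being called higher and 2 lower (0.40), or in 2 of 8 with total count scaling (-0.29). Of cholangiocyte markers 4 of 5 were lower (-0.61), or 5 with 2 called with total count scaling (-1.25). Of Kupffer cell markers 5 of 6 were lower (-0.18), or 6 with 4 called with that scaling (-0.88). It called 48.6% of all genes lower. The part of all these markers in the result was not tested.

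Cd36, the scavenger receptor that takes up long-chain fatty acids (chr5:17781690-17888801 in GRCm38, minus strand), carried the clearest change. It stood at 141, 92.7 and 177 CPM in the NP livers and at 527, 835 and 604 CPM in the AAV8-null 16 dpc livers. The groups did not overlap, and the log2 difference was 2.26 ± 0.34 (adjusted p = 0.00123, edgeR). Plin2, the protein that coats lipid droplets (chr4:86648386-86670060, minus strand), stood at 447, 585 and 489.7 CPM in NP and at 1815, 4899 and 2215 CPM at 16 dpc. Its second 16 dpc liver was far above the others, and the log2 difference was 2.55 ± 0.54 (adjusted p = 0.0113). Without that liver the difference was 1.99 (adjusted p = 0.0505), and without the third NP liver it was 2.53 (adjusted p = 0.0525).

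Slc27a1 (chr8:71568882-71587302, plus strand) moved the other way. It stood at 16.1, 19.2 and 26.4 CPM in NP livers and 5.79, 7.25 and 8.01 CPM at 16 dpc, again without overlap. The log2 difference was -1.55 ± 0.32 (adjusted p = 0.0100), and -1.33 without the third NP liver (adjusted p = 0.0502). With total count scaling Cd36 and Plin2 were still called higher and Slc27a1 lower, and Acaa1b and Bdh1, which makes the ketone body 3-hydroxybutyrate, were called lower as well, while that scaling called 1.91% of all genes higher and 48.6% lower.

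Within roles, and relative to most genes, the acyl-CoA thioesterases, which release free fatty acids from acyl-CoA, had the highest median log2 difference at 16 dpc against NP, 1.12 over 4 genes. Without the second 16 dpc liver it was 0.69, below the 0.87 of the 3 uptake and binding genes and the 0.71 of the 4 regulators and other targets, and without the first NP liver it was 0.96, below the 1.32 of the uptake and binding genes. The 10 mitochondrial beta-oxidation genes had a median of 0.49 and the 3 carnitine shuttle genes one of 0.46, and edgeR called no gene of either set. Omega-oxidation (3 genes) and peroxisomal oxidation (5 genes) had medians of 0.13 and 0.22. In 17 members every 16 dpc liver was above every NP liver, against 12.1% of all genes, and in 1 member, Slc27a1, every liver was below, against 12.5%. Acads was one of the 17, at 152, 147 and 136 CPM in NP and 204, 220.3 and 168 CPM at 16 dpc (log2 difference 0.45 ± 0.15, adjusted p = 0.10). DESeq2 over the 15 libraries called Cd36, Plin2 and Acads higher (5.3% of its genes), Acads with an adjusted p of 0.0106, and Slc27a1 lower (3.73%). DESeq2 fitted to these 2 groups alone called 8 members: Cd36, Plin2, Acadvl, Ehhadh, Vnn1, Cyp4a10 and Acot1 higher (4.38% of its genes) and Slc27a1 lower (2.68%).

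At 8 dpc, against NP, no member passed the test in either direction, nor did any gene by edgeR (0% lower), while DESeq2 called 0 members and 62 genes over the 15 libraries. Unadjusted p under 0.05 was reached by 2 members, both lower, against 3.37% of all genes in that direction. Acaa1b stood at 1562, 1241 and 978 CPM in NP and 594, 481 and 995 CPM at 8 dpc (log2 difference -0.87, adjusted p = 0.614), and these groups overlapped. Slc27a1 stood at 11.2, 8.04 and 14.6 CPM at 8 dpc, below all NP livers (log2 difference -0.87, adjusted p = 0.489). By sign, 3 of 34 members were above 0, against 49% of all genes, with a median of -0.26. Leaving out the third 8 dpc liver moved that median to -0.62, and leaving out the second moved it to -0.06. All 8 hepatocyte markers (median -0.23, or 7 of 8 with total count scaling), all 6 endothelial (-0.82) and all 6 stellate cell markers (-0.54) were lower in value as well, and their part in the result was not tested.

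Between 8 and 16 dpc in AAV8-null mice, Cd36, Plin2, Acot2, Acot4 and Acat1 rose and none fell. These were 5 of 34 members, against 3.16% of all genes. The comparison shares the 16 dpc livers with the one against NP, so the values are given side by side and not as separate support. Cd36 stood at 90.6, 88.2 and 138 CPM and Plin2 at 618, 476 and 819.7 CPM at 8 dpc, both close to their NP values. The log2 differences to 16 dpc were 2.63 ± 0.34 for Cd36 (adjusted p = 0.000552) and 2.22 ± 0.53 for Plin2 (adjusted p = 0.0235).

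Acot2 (chr12:83987861-83993873, plus strand) and Acot4 (chr12:84038379-84048601, plus strand) encode thioesterases of mitochondria and peroxisomes, respectively. Acot2 stood at 33.0, 38.7 and 33.7 CPM in NP, 13.6, 10.2 and 52.7 CPM at 8 dpc and 58.8, 413 and 54.0 CPM at 16 dpc. The second 16 dpc liver set most of its difference, which was 2.78 ± 0.79 (adjusted p = 0.0495) with it and had an adjusted p of 0.366 without it. Acot4 stood at 147, 272 and 299.9 CPM in NP, 159.8, 100.4 and 213 CPM at 8 dpc and 557, 718 and 214 CPM at 16 dpc. The third 16 dpc liver lay barely above the highest 8 dpc liver, and the log2 difference was 1.65 ± 0.44 (adjusted p = 0.0374). Acat1, the mitochondrial acetoacetyl-CoA thiolase (chr9:53580522-53610382, minus strand), stood at 546, 561 and 471 CPM in NP, 332, 269 and 504 CPM at 8 dpc and 761, 846 and 733 CPM at 16 dpc. Its livers at 16 dpc lay close together and above all others of AAV8-null, with a log2 difference of 1.08 ± 0.27 (adjusted p = 0.0295). Of the 6 fits of this comparison that left out a liver, Acat1 was called in 1, Acot4 in 2, Acot2 and Plin2 in 3 each, and Cd36 in 6.

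How many members passed in this comparison depended on single livers. Without the third 8 dpc liver, in which all members were high, 14 were called higher, against 4.34% of all genes. Without the first or the second 8 dpc liver, or the second 16 dpc liver, 1 was called, Cd36, against 1.3%, 1.15% and 1.6% of all genes. Without the first 16 dpc liver 3 were called, against 3.07%, and without the third 5, against 2.2%. By sign 30 of 34 members were higher at 16 dpc, against 50.4% of all genes. With total count scaling, where the median of all genes was -0.70, 16 members were higher. Under it Acot4 and Acat1 were no longer called (adjusted p of 0.0713 and 0.277 by edgeR). Slc27a1 and Bdh1 were called lower under it, beside 51.9% of all genes. Of the 6 endothelial markers 6 were higher in value at 16 dpc and 2 were called (median 0.83), but with total count scaling 5 were higher and 0 called (0.12). Hepatocyte markers were higher in value in 5 of 8 with 2 called (0.52), stellate cell markers in 5 of 6 with 1 called (0.34) and erythroid markers in 5 of 5 (0.36), all 3 medians being below 0 with total count scaling (-0.20, -0.35 and -0.30). Kupffer cell markers were lower in 5 of 6 (-0.24), and with total count scaling in 6 with 4 called (-0.95). The part of these markers in the result was not tested. In 16 members every 16 dpc liver was above every 8 dpc liver, against 12.5% of all genes. DESeq2 called 10 members higher over the 15 libraries (5.03% of its genes) and 10 over these 2 groups alone (4.23%).

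**Figure D2:**
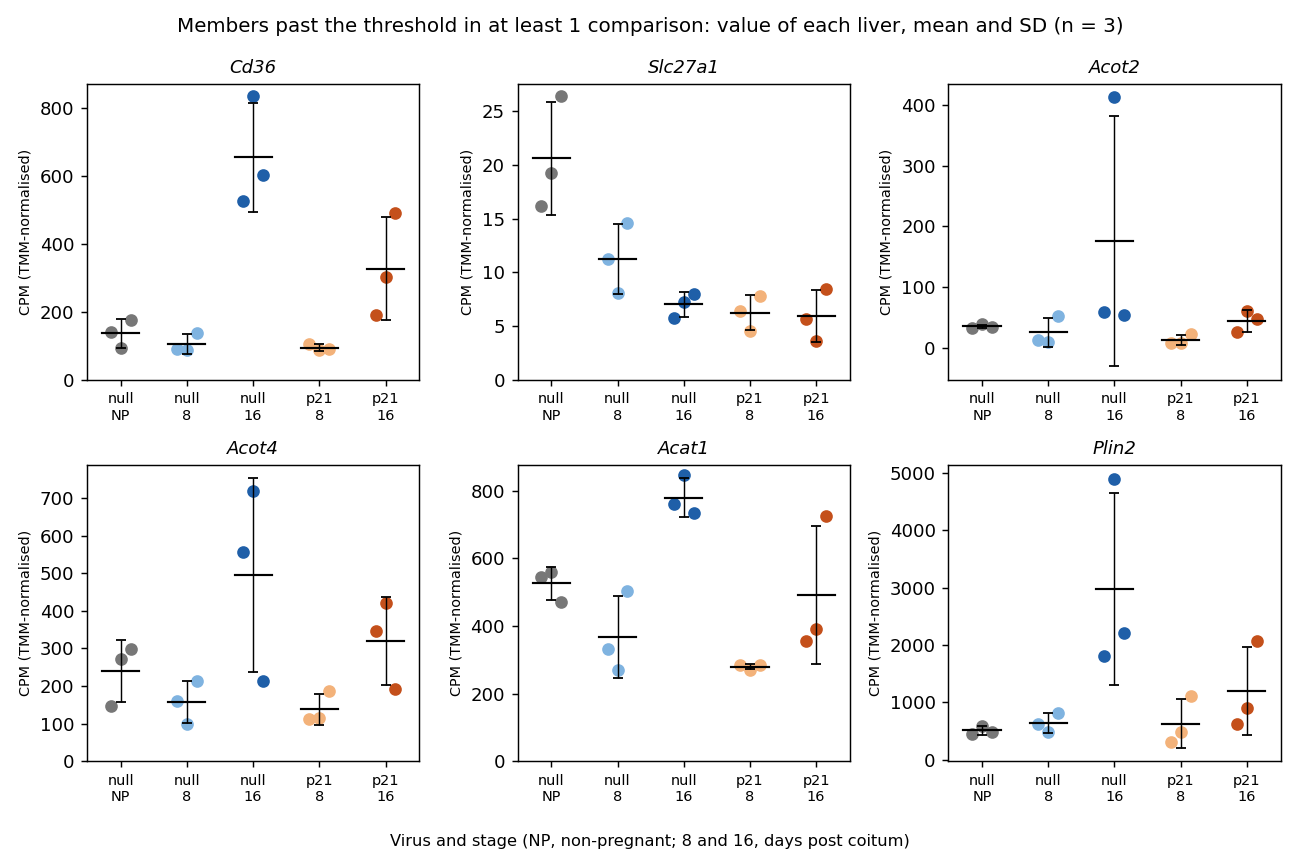
Each panel is a member called in at least 1 comparison, with the CPM of each liver as a point and the mean with its SD (n = 3) for each group, from AAV8-null NP to AAV8-p21 16 dpc. Cd36 lies between 527 and 835 CPM in the AAV8-null 16 dpc livers, above every other liver.

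The same interval in AAV8-p21 mice showed 1 called member, Cd36, and none lower. Its values were 106, 88.5 and 90.4 CPM at 8 dpc and 191, 302 and 491 CPM at 16 dpc, without overlap, with a log2 difference of 1.79 ± 0.33 (adjusted p = 0.00863). That call was lost without the second 8 dpc liver (adjusted p = 0.0508), and without the third, 5 members were called, against 2.33% of all genes. The count of 1 in 34 compared with 2.09% of all genes. By sign 30 members were above 0, against 48.1% of all genes. With total count scaling, where the median of all genes was -0.59, 19 were. Hepatocyte markers were higher in value in 6 of 8 with 2 called (median 0.52), or in 4 with total count scaling (-0.05), and endothelial markers in 5 of 6 (0.45), or in 1 (-0.13). All 6 Kupffer cell markers were lower (-0.35), 4 of them called with total count scaling (-0.95), under which 34% of all genes were called lower. The part of these markers in the result was not tested. Plin2 stood at 302, 473 and 1104 CPM at 8 dpc and 622, 899.8 and 2061 CPM at 16 dpc, and these groups overlapped (log2 difference 0.93 ± 0.51, adjusted p = 0.391). Acat1 stood at 285, 271 and 285 CPM and 357, 391 and 725 CPM (adjusted p = 0.129). DESeq2 called 2 members over the 15 libraries, Cd36 and Creb3l3, a liver transcription factor of the fasting response (3.56% of its genes), and 6 over these 2 groups alone (4.15%).

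The comparison of viruses at 16 dpc bears on late-pregnant livers of mice given p21 before mating. No member passed edgeR's test, and 0.0575% of all genes, 7 in number, passed it as lower. At an unadjusted p under 0.05, 9 members were lower and 0 higher, which is 26.5% of the members against 4.72% of all genes. By sign 33 of 34 members were lower with AAV8-p21, the exception being Bdh1, while 50% of all genes were above 0. With total count scaling, where the median of all genes was 0.11, 30 members were lower and 4 higher. The median log2 difference of the members was -0.43 and that of all genes -0.0002, and leaving out a liver moved the former between -0.72 (without liver c of AAV8-p21) and -0.33 (without the second AAV8-null liver). The viruses did not overlap in 8 members, all lower with AAV8-p21, against 7.02% of all genes. These were Cd36, Decr1, Cpt2, Acat1, Slc25a20, Vnn1, Cyp4a10 and Acot1. With AAV8-p21, 4 of 5 cholangiocyte markers (median 0.69), 5 of 6 stellate cell markers (0.39) and 5 of 6 Kupffer cell markers (0.19) were higher in value, and 5 of 6 endothelial markers (-0.20) and 5 of 8 hepatocyte markers (-0.27) lower, and their part in the result was not tested.

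Of uptake genes at 16 dpc, Cd36 had a log2 difference of -0.999 ± 0.33 between viruses (adjusted p = 0.311), with the values given above, and its AAV8-p21 livers lay between those of NP and of AAV8-null 16 dpc. Slc27a1 was at 5.71, 3.63 and 8.45 CPM with AAV8-p21 and overlapped AAV8-null. In the carnitine shuttle, Cpt2, which returns acyl groups to CoA inside mitochondria, stood at 306, 329 and 268 CPM with AAV8-null and 153, 176 and 263 CPM with AAV8-p21. The groups only just failed to meet, and the log2 difference was -0.61 ± 0.25 (adjusted p = 0.465). Among the 10 mitochondrial genes, all of which were lower in value, Acadl, the long-chain acyl-CoA dehydrogenase, stood at 368, 482 and 490.3 CPM and 229, 255 and 425 CPM (log2 difference -0.56 ± 0.28). Liver c of AAV8-p21 lay within the AAV8-null range for it, and Acads (178, 172 and 175 CPM with AAV8-p21) also overlapped.

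In the peroxisomal set, Acaa1b stood at 690.2, 1459 and 981 CPM with AAV8-null and 397, 581 and 738 CPM with AAV8-p21 (log2 difference -0.87 ± 0.36, adjusted p = 0.465). Ehhadh stood at 1744, 4784 and 4322 CPM and 424, 786 and 3030 CPM. Its AAV8-p21 livers ran from far below to within the AAV8-null range, so the log2 difference of -1.36 had an SE of 0.76. Cyp4a10, which hydroxylates the far end of fatty acids, stood at 4314, 5655 and 5857 CPM and 617, 1339 and 4028 CPM (log2 difference -1.40 ± 0.60, adjusted p = 0.477). Its groups did not overlap, although liver c came within reach of the lowest AAV8-null liver. Without liver c the difference was -2.43 for Cyp4a10 and -2.58 for Ehhadh, and without liver a it was -0.97 and -0.92.

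The thioesterases had a median log2 difference of -1.24 between viruses at 16 dpc over 4 genes, and one of -0.30 without the second AAV8-null liver. Acot1, the cytosolic thioesterase, stood at 253, 429 and 218 CPM with AAV8-null and 51.9, 101 and 98.5 CPM with AAV8-p21. Its groups lay well apart, at a log2 difference of -1.84 ± 0.60 (adjusted p = 0.311). Acot2 was at 25.3, 61.4 and 47.7 CPM with AAV8-p21, and its log2 difference of -1.97 became -0.33 without the second AAV8-null liver. Acot4 was at 347, 420.1 and 192 CPM with AAV8-p21 and overlapped AAV8-null, with a difference of -0.27 without that liver.

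Of the remaining members, Acat1 differed by -0.67 ± 0.27 on the log2 scale (adjusted p = 0.456) and Plin2 by -1.32 ± 0.51 (adjusted p = 0.424), the latter with overlapping groups, -0.75 without the second AAV8-null liver and -1.97 without liver c of AAV8-p21. Vnn1, a pantetheinase that is a sensitive PPAR-alpha target, stood at 357, 364 and 390.1 CPM with AAV8-null and 81.5, 141 and 219 CPM with AAV8-p21. The AAV8-null livers lay close together and all above, at a log2 difference of -1.33 ± 0.48 (adjusted p = 0.367). Ppara itself stood at 60.8, 218 and 61.1 CPM and 74.5, 96.4 and 133 CPM, and overlapped. DESeq2 fitted to these 2 groups alone called Acot1 and Vnn1 lower (0.58% of its genes), and fitted to the 15 libraries it called none.

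**Figure D3:**
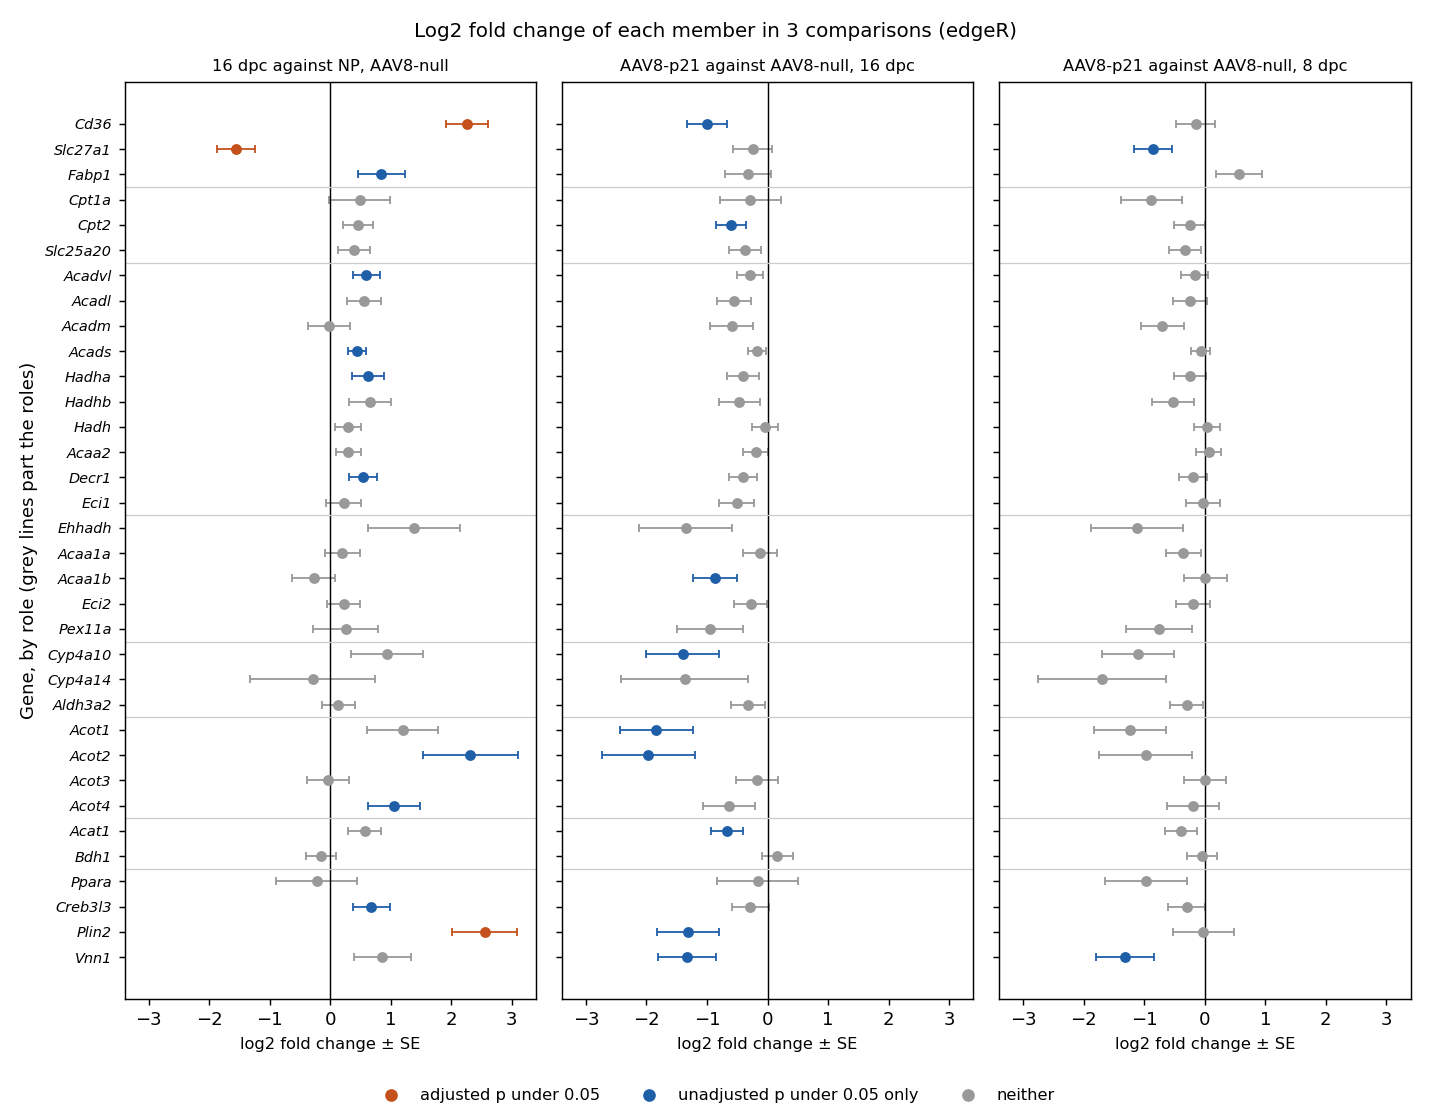
Points are the log2 fold change of each member and bars its SE, in 3 comparisons, with color for adjusted p under 0.05, unadjusted p under 0.05 only, or neither. At 16 dpc against NP 27 of 34 members are above 0 (9 with total count scaling, where the median of all genes is -0.70). With AAV8-p21 against AAV8-null at 16 dpc 33 are below 0 (30 with total count scaling, where that median is 0.11).

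At 8 dpc no member passed the test between viruses, and 0.0246% of all genes passed it as lower by edgeR. DESeq2 also called 0 members, against 0.177% of its genes over the 15 libraries and 0.627% over these 2 groups alone. Unadjusted p under 0.05 was reached by 2 members, Slc27a1 and Vnn1, both lower, against 2.69% of all genes. Slc27a1 stood at 6.42, 4.57 and 7.78 CPM with AAV8-p21, below all AAV8-null livers (log2 difference -0.85 ± 0.31, adjusted p = 0.770). Vnn1 stood at 87.2, 68.6 and 282 CPM with AAV8-null and 39.4, 48.4 and 87.1 CPM with AAV8-p21 and overlapped (log2 difference -1.33 ± 0.48, adjusted p = 0.767). By sign 4 of 34 members were above 0, against 49.6% of all genes, with a median of -0.28. Without the third AAV8-null 8 dpc liver that median was 0.06. All 6 stellate cell markers (median 0.89), all 5 erythroid markers (0.59), 4 of 5 cholangiocyte markers (0.75), 5 of 6 endothelial markers (0.28) and 5 of 6 Kupffer cell markers (0.20) were higher in value with AAV8-p21 and 5 of 8 hepatocyte markers lower (-0.10), and their part in the result was not tested.

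Whether the difference between viruses itself changed from 8 to 16 dpc was tested as an interaction. No member passed it by edgeR or DESeq2, and at an unadjusted p under 0.05 there were 0 members higher and 0 lower, against 1.74% and 1.35% of all genes. By sign 9 of 34 were above 0, against 50.3% of all genes. With total count scaling 19 were, and the share of all genes under that scaling was not counted. The estimates with the largest size were those of Plin2 (-1.29 ± 0.72), Acot2 (-0.99 ± 1.06) and Fabp1 (-0.88 ± 0.54), all with an adjusted p of 1. A difference between the stages in how the viruses compared was therefore not detected with 3 livers a group.

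The pathways around the members were read from lists of further genes. Against NP, at 16 dpc 3 of 5 other ketone body genes rose and 0 fell, beside the 3.71% and 2.82% of all genes given above, led by Slc16a6, a transporter that exports ketone bodies from hepatocytes. It stood at 4.99, 2.92 and 2.59 CPM in NP, 104, 102 and 82.8 CPM with AAV8-null at 16 dpc and 47.2, 38.3 and 37.8 CPM with AAV8-p21 at 16 dpc. Neither pregnant group at 16 dpc overlapped NP, and the log2 difference in AAV8-null was 4.78 ± 0.34 (adjusted p = 1.616e-06). Slc16a1, a monocarboxylate transporter, differed by 1.69. Of 36 other PPAR-alpha and fasting targets tested, 3 rose and 0 fell: Ucp2, a mitochondrial carrier, by 1.90, Pdk4, the kinase that shuts off pyruvate dehydrogenase, by 3.78, and Acot6 by 1.71. Of 19 other mitochondrial genes 2 rose, the acyl-CoA synthetases Acsl1 (1.10) and Acsl5 (1.09), of 19 other peroxisomal genes 1 rose, Hacl1 (1.26), and of 10 other omega-oxidation genes 2 rose and 1 fell. When a liver was left out, Slc16a6, Slc16a1 and Ucp2 passed in each fit, and the calls of Pdk4, Acot6, Acsl1, Acsl5 and Hacl1 were each lost in at least 1 fit. The difference of Pdk4 was 1.89 without the second 16 dpc liver. Most calls in these lists were lower with total count scaling, under which 1.91% of all genes were called higher and 48.6% lower. It gave 2 ketone body genes higher and 1 lower, 2 other targets higher and 9 lower, and 0 higher with 8 mitochondrial, 8 peroxisomal and 5 omega-oxidation genes lower.

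Between 8 and 16 dpc in AAV8-null mice the same lists gave 3 ketone body genes higher, 2 mitochondrial genes higher and 1 lower, 0 peroxisomal genes, 1 omega-oxidation gene higher and 2 lower, and 3 other targets higher and 1 lower, while 3.16% of all genes were higher and 3.71% lower. With total count scaling, under which 1.56% of all genes were called higher and 51.9% lower, there were 1 ketone body gene higher and 1 lower, 6 mitochondrial and 8 peroxisomal genes lower, 1 omega-oxidation gene higher and 6 lower, and 3 other targets higher and 7 lower. Low p-values belonged to Slc16a6 (3.88), Ucp2 (1.84), Pdk4 (4.49), Acad12 (1.23), Cyp4v3 (-1.01), Acsl1 (1.06) and Cyp4a31 (1.96), as log2 differences. The first 4 of these passed in each fit that left out a liver, Pdk4 with 2.60 without the second 16 dpc liver, and the other 3 did not. In AAV8-p21 mice 2 ketone body genes, 1 mitochondrial gene, 1 omega-oxidation gene and 3 other targets were higher and 3 other targets lower, while 2.09% of all genes were higher and 1.23% lower. With total count scaling, under which 1.47% of all genes were called higher and 34% lower, there were 1 ketone body gene higher and 2 lower, 1 mitochondrial gene higher and 3 lower, 5 peroxisomal genes lower, 1 omega-oxidation gene higher and 5 lower, and 3 other targets higher and 6 lower. There low p-values belonged to Ucp2 (2.08), Acad12 (1.92), Slc16a6 (2.19), Agpat2 (-1.10), Cyp4a31 (2.13), Fads2 (1.53) and Lpin1 (2.27), of which the first 3 passed in each fit that left out a liver. Between viruses at 8 dpc, 0 of the 88 genes of these lists were called by edgeR, with 4 at an unadjusted p under 0.05, against 5.18% of all genes, and 1 called by DESeq2 over the 15 libraries, against 0.177%. At 16 dpc, 0 of the 88 were called by edgeR, with 17 at an unadjusted p under 0.05, against 9.77% of all genes, and 4 called by DESeq2, against 0.965%. Pdk4 stood at 159, 1222 and 109.7 CPM in AAV8-null 16 dpc livers, the second of them far above the rest, and at 22.4, 40.9 and 14.4 CPM in the AAV8-p21 16 dpc livers. The viruses did not overlap, and the log2 difference was -4.26 ± 0.81 (adjusted p = 0.0623). It was -2.37 without the second AAV8-null liver (adjusted p = 0.121), and passed without the first (adjusted p = 0.0478) or the third (0.0332).

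Genes of the day phase and of feeding also differed in value between the groups. In the liver, morning-phase clock genes (5, among them Arntl and Npas2) peak when evening-phase genes (9, among them Dbp and Per2) are low. Between viruses at 16 dpc, all 5 morning genes were lower in value with AAV8-p21 (median log2 difference -1.61), all 9 evening genes higher (1.38) and all 10 fed-state lipogenesis genes higher (1.12), and none of these 24 genes was called by edgeR, with 8 at an unadjusted p under 0.05, against 9.77% of all genes, and 1 called by DESeq2 over the 15 libraries, against 0.965%, or 4 over these 2 groups alone, against 0.936%. The mean centred log2 level of the evening genes was -1.16, 0.06 and -1.12 in the AAV8-null 16 dpc livers and 1.27, 1.44 and 0.70 in the AAV8-p21 16 dpc livers, without overlap. In the NP livers it was -0.34, 1.64 and 1.67, so that the first NP liver stood apart from the others of its group. For lipogenesis it was -0.53, 0.07 and -1.97 with AAV8-null and 1.16, 1.05 and -1.60 with AAV8-p21 at 16 dpc. Liver c of AAV8-p21, in which 28 of 34 members were above the group mean, had the lowest lipogenesis level of its group. So did the second NP liver (-0.81) and the third AAV8-null 8 dpc liver (-0.94), each the highest of its group in the members. The second AAV8-null 16 dpc liver, also the highest in the members, had instead the highest lipogenesis level. In AAV8-p21 8 dpc, the third liver, highest in the members, lay between the others (0.96). Against NP, all 9 evening genes were lower in value at 8 dpc (median -1.53) and at 16 dpc (-1.48). At 16 dpc edgeR called none of them with TMM and 8 with total count scaling, under which 48.6% of all genes were called lower. All 5 morning genes were higher in value at 16 dpc (0.76), though 3 of 5 with total count scaling, and 4 of 5 at 8 dpc (0.74). From 8 to 16 dpc in AAV8-p21 mice all 9 evening genes were higher in value (1.80) and all 5 morning genes lower (-0.80). With total count scaling 7 evening genes were higher (1.27) and all 5 morning genes lower (-1.38). Of these morning genes 3 were called, where 34% of all genes were called lower. In AAV8-null mice the medians of evening and morning genes were -0.14 and -0.10, and -0.86 and -0.79 with total count scaling. From 8 to 16 dpc lipogenesis genes were lower in value in 7 of 10 in AAV8-p21 mice (-0.73) and in 6 of 10 in AAV8-null mice (-0.37). Between viruses at 8 dpc all 10 lipogenesis genes were higher in value with AAV8-p21 (1.45). Of the 24 clock and lipogenesis genes, edgeR called none there, 5 had an unadjusted p under 0.05, against 5.18% of all genes, and DESeq2 called none over the 15 libraries and 7 over these 2 groups alone, against 0.627%. Of the 6 fasting gluconeogenesis genes, 5 were lower in value with AAV8-p21 at 16 dpc (median -0.14) and 5 at 8 dpc (-0.23). Against NP, 4 were higher at 16 dpc (0.55), or 3 with total count scaling (-0.15), and 2 at 8 dpc (-0.23). From 8 to 16 dpc 4 were higher in AAV8-null mice (0.80) and 6 in AAV8-p21 mice (0.70), or 3 and 4 with total count scaling. Igfbp1 alone was called, at 16 dpc against NP (3.64) and 8 dpc (3.2) in AAV8-null mice, beside 3.71% and 3.16% of all genes. The part of day phase and feeding in the differences of the members was not tested.

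**Figure D4:**
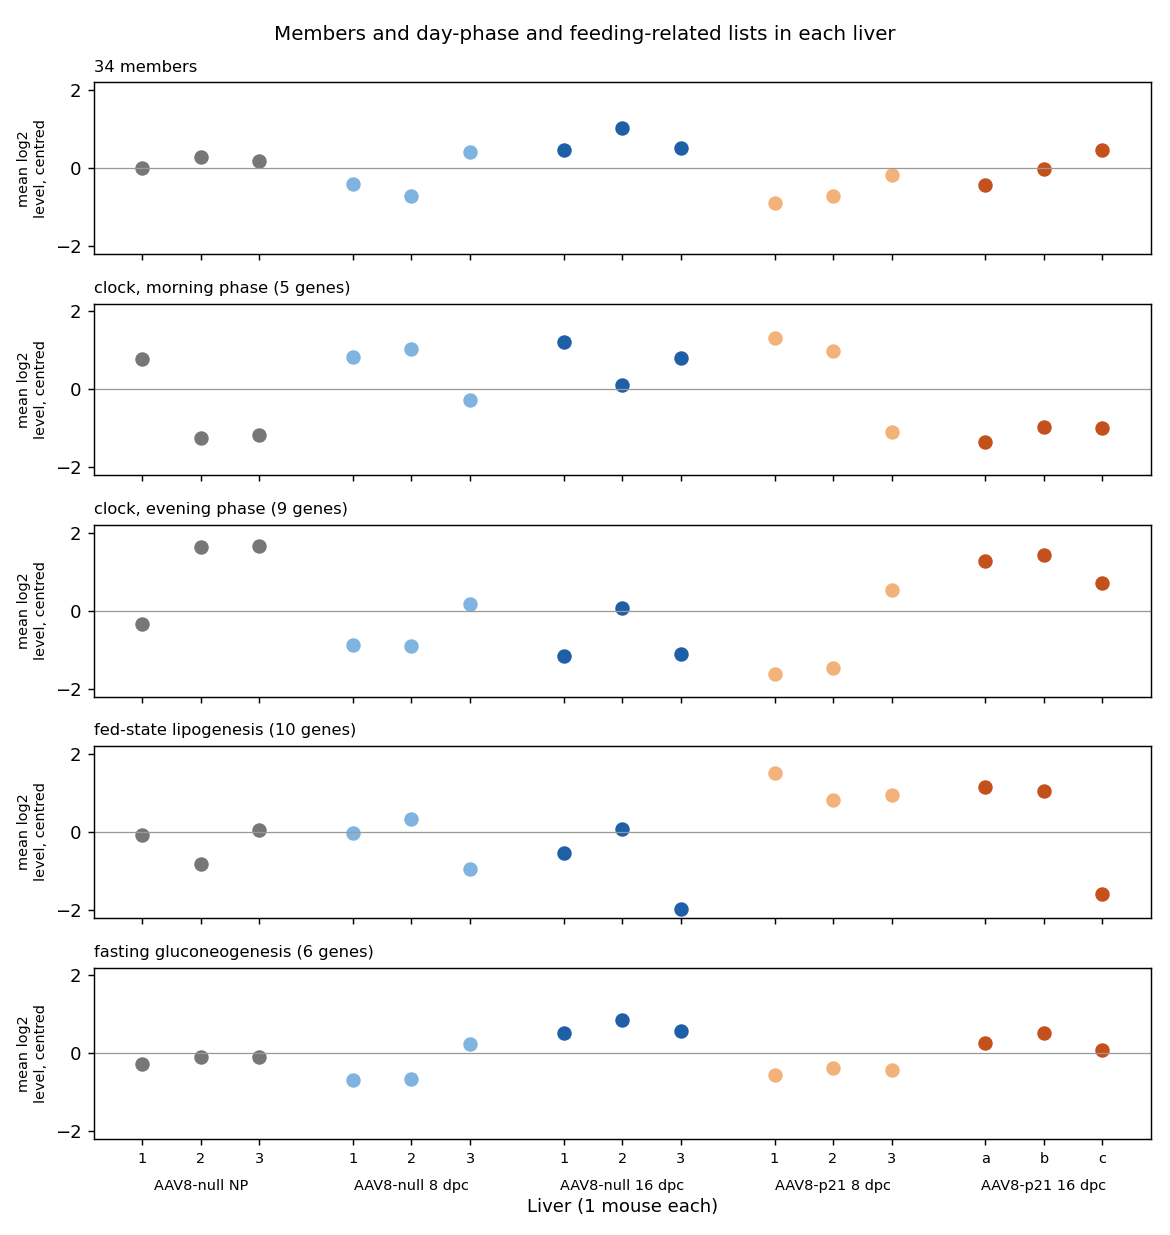
Each point is 1 liver, and each panel the mean log2 level of a list, centred on its mean over the 15 livers: the 34 members, morning and evening clock genes, fed-state lipogenesis and fasting gluconeogenesis. The 3 AAV8-p21 16 dpc livers lie between 0.70 and 1.44 for the evening genes, above the 3 AAV8-null 16 dpc livers.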

How the data were processed

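Whole-liver RNA from 15 mice was sequenced by the authors as single-end reads of 86 bases. Per the study's methods and the submitters' processing notes, the authors used cutadapt 1.14 for trimming and HISAT2 2.1.0 for alignment to the mm10 genome, and deposited raw counts of uniquely mapped reads per protein-coding gene from HTSeq 0.12.4. From these counts, edgeR 4.0.16 in R 4.3.3 (filterByExpr with a minimum count of 10, TMM, 1 quasi-likelihood fit over 15 libraries with 10 residual degrees of freedom) tested 7 comparisons, with Benjamini-Hochberg adjustment over the 12172 genes tested, and a gene was called at adjusted p under 0.05. DESeq2 1.42.0 was an alternative, and scaling to the total count alone was added after the data were seen. The SE is the log2 fold change divided by the square root of F. An exact permutation test of 3 against 3 cannot go below p = 0.1. Coordinates and exon lengths are from the GRCm38 annotation. The test was checked on simulated data.

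Groups came from the labels. The numbers of the AAV8-p21 16 dpc columns do not match the numbers in the labels, so those livers are called a, b and c. Livers with the same number were different mice, so the comparisons were not paired. Values of each liver are given for members called in any comparison and for the members of each role with the lowest p at 16 dpc, against NP and between viruses. Of the further pathway genes, at most 8 called per comparison, those with the lowest p, are named, and 1 item is not reported here. The members and lists were chosen with earlier results of these data known.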

Additional observations from a re-analysis of the deposited data

How the results depend on the processing

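Counts of members past the threshold depended on the test. At 16 dpc against NP in AAV8-null mice, 3 members passed by edgeR (3.71% of all genes higher, 2.82% lower). DESeq2 fitted to the compared groups alone called 8 (7.07% of its genes). With total count scaling 2 were higher and 3 lower, beside 1.91% and 48.6% of all genes. When a liver was left out 1 to 3 passed. The count was 1 without the third NP liver, beside 1.74% of all genes higher and 1.32% lower. Between 8 and 16 dpc in AAV8-null mice, 5 passed by edgeR (3.16% of all genes higher, 3.71% lower) and 10 by DESeq2 over the 15 libraries (10.3%). Over the compared groups alone 10 passed by DESeq2 (8.51%) and 2 by edgeR. With total count scaling 3 were higher and 2 lower, beside 1.56% and 51.9% of all genes. When a liver was left out 1 to 14 passed, beside the shares given above. In AAV8-p21 mice the same interval gave 1 by edgeR (2.09% of all genes higher, 1.23% lower), then 2 and 6 by DESeq2 (5.77% and 6.64%). It gave 2 by edgeR over the compared groups alone, and 0 to 5 when a liver was left out. The count was 0 without the second AAV8-p21 8 dpc liver (0.982% of all genes higher) and 5 without the third (2.33%). Between viruses at 16 dpc, 0 passed by edgeR and 2 by DESeq2 over the compared groups alone (0.936% of its genes). With the replicate block, over the 12 libraries whose numbers match the labels, 3 members passed between 8 and 16 dpc in AAV8-null mice, against 4 in the same libraries without it, and the counts of the other 3 comparisons it could be run for did not change. Shares of all genes are not given for these fits, nor for edgeR over the compared groups alone. Their counts therefore cannot be read as results about the members. Same-numbered livers did not deviate together in every pair of any 2 groups. Medians of the members changed sign with total count scaling, to -0.22 at 16 dpc against NP and -0.030 at 16 against 8 dpc in AAV8-null mice. The median of all genes with that scaling was -0.70 in both, so the medians of the members stayed above it. For the interaction the median of the members became 0.032. When a liver was left out, the median ran from -0.50 to 0.057 between viruses at 8 dpc and from -0.46 to 0.010 for the interaction, and Slc27a1 between viruses at 16 dpc from -0.59 to 0.017. The interaction median was also above 0 without the third AAV8-p21 8 dpc liver (0.0033) and without liver a of AAV8-p21 16 dpc (0.0061). The causes were not tested. With 3 livers a group, differences of the size of the spread between livers could not be shown.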
